A study of Homo sapiens with 4 samples.

Results

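10 genes of innate immune sensing were followed in MV4-11 cells after knockdown of IRF1, and all 10 of them were among the 23622 genes measured. They were chosen by symbol and comprise the Toll-like receptors TLR1, TLR2, TLR4, TLR5, TLR6 and TLR8, the shared signalling proteins MYD88 and IRAK4, and the inflammasome genes NLRP3 and PYCARD. MV4-11 is an established human acute myeloid leukemia (AML) line with monocytic features, and its genotype is WT in the labels of both groups. RNA was sequenced from 2 control libraries (sh-NC) and 2 libraries with IRF1 knockdown (sh-IRF1), and the comparison asked which transcripts differ when IRF1, an interferon regulatory factor, is lowered. The labels give the control libraries no treatment, whereas the study's methods describe lentiviral delivery of short hairpin RNAs to all cells, with a control hairpin named sh-NC and puromycin selection. Hairpins of this kind are trimmed to small interfering RNAs, which lead to the destruction of matching transcripts. The labels do not say which hairpin each sh-IRF1 library carried, nor whether replicates came from separate cultures. The p-values therefore measure a spread between these libraries that is pooled largely over all genes and may be technical. Everything below comes from 1 cell line, without added bacterial or viral ligand in the labels.

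Toll-like receptors are membrane proteins that recognise conserved microbial molecules. TLR2 pairs with TLR1 or TLR6 to bind bacterial lipoproteins, TLR4 binds lipopolysaccharide together with LY96 (MD-2) and CD14, and TLR5 binds flagellin, all at the cell surface, whereas TLR8 and its neighbour TLR7 read RNA in endosomes. Most of these receptors signal through the adaptor MYD88, which assembles with the kinase IRAK4. NLRP3 is a cytosolic sensor that gathers the adaptor PYCARD (ASC) and caspase-1 into an inflammasome, the complex that matures interleukin-1 beta and interleukin-18, and monocytes are known for expressing this machinery.

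Sequences of the hairpin targets are shown because they define the perturbation, and 4 promoters are shown: those of MYD88 and TLR4, the members whose windows held a motif, and those of NLRP3 and TLR2, which had the smallest p in each direction. Both 21-base hairpin targets that the study designed against IRF1 lie within coding exons of IRF1 in the GENCODE 44 annotation of hg38, on the minus strand, at chr5:132486284-132486304 in exon 7 and chr5:132485672-132485692 in exon 8 of 10 exons. Neither target, on either strand, had an exact match in the canonical transcripts of the members (0 of 10 for each). Only the full 21 bases were searched and not shorter matches, so a direct effect of the hairpins on the members was not tested.
sh-IRF1#1: gcaccagtgatctgtacaact
sh-IRF1#2: ggaaattacctgaggacatca

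Promoter windows of 300 bases, from 250 bases before to 50 bases after each gene start, came from RefSeq on GRCh38.p14, and 9 of the 10 members matched by symbol; TLR1 did not. In the windows of MYD88 (chr3:38138411-38138710, plus strand), TLR4 (chr9:117704153-117704452, plus strand), NLRP3 (chr1:247415923-247416222, plus strand) and TLR2 (chr4:153684030-153684329, plus strand), capitals mark matches to any of the motifs searched on both strands. The motifs were GAAA followed after any 2 bases by GAAA, the core of interferon regulatory factor sites, GGAA followed after any 2 bases by GAAA, a composite of ETS and interferon regulatory factor sites, TTCNNNGAA, the STAT palindrome, and the NF-kappaB consensus.
MYD88: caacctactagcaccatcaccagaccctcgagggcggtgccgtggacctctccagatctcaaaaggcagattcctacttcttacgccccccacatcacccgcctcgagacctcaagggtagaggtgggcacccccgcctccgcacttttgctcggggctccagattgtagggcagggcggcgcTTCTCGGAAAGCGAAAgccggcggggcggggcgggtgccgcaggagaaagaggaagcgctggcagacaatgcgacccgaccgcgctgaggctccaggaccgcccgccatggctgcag
TLR4: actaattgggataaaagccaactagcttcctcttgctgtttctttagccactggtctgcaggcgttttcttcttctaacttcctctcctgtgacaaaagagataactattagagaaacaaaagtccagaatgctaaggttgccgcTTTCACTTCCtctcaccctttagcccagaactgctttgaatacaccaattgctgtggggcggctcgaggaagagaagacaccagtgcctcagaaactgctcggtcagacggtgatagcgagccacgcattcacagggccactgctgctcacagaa
NLRP3: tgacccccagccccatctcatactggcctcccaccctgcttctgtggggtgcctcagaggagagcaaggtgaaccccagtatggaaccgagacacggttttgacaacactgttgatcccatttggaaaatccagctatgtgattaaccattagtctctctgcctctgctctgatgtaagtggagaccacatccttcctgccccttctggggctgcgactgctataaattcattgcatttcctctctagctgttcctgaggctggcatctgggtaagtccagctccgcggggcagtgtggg
TLR2: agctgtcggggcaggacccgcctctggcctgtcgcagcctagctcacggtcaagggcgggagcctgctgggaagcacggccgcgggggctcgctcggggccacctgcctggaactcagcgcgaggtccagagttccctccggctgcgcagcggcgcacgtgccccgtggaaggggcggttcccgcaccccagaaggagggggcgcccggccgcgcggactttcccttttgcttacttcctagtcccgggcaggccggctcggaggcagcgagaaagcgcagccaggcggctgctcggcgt

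MYD88 held the match GAAAGCGAAA, beginning 61 bases before its RefSeq start, and the palindrome TTCTCGGAA, beginning 67 bases before it, so that both share bases. TLR4 held the composite match GGAAGTGAAA, read on the opposite strand. NLRP3 and TLR2 held none of these letters, nor did the windows of TLR5, TLR6, TLR8, IRAK4 and PYCARD. Of all 35116 promoter windows, 3.57% held the interferon regulatory factor core, 2.82% held the composite, 7.66% held TTCNNNGAA and 11.3% held the NF-kappaB consensus. A match of letters is a description of the window and not a binding site.

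The deposited values are reads per gene divided by 1 size factor per library, called normalized counts here. The reads behind them could be recovered and summed to between 17635908 and 18695337 per library. IRF1 itself, the targeted gene, had 785 and 738 normalized counts in sh-NC and 430 and 432 in sh-IRF1, so both knockdown libraries lay below both controls, at 56.6% of the control mean. Its log2 fold change was -0.82 ± 0.0904 (SE, limma adjusted p = 1.69e-10), with 22.9% of its annotated exonic bases shared with the opposite-strand gene IRF1-AS1. The identity of the line was checked with 12 markers of myeloid leukemia, all of which had reads. They summed to between 39750 and 39780 normalized counts in sh-NC and between 34678 and 35116 in sh-IRF1, with FLT3 and CD4 the most abundant. Of 10 lymphoid markers 5 were listed, and their summed normalized count ran from 1157 to 1202 in sh-NC and from 1237 to 1270 in sh-IRF1, most of it from NKG7 (968 to 1077), while CD79A rose 4.71-fold (log2 fold change 2.20, adjusted p = 4.46e-12, limma). Of 10 erythroid and megakaryocyte markers 2 were listed, KLF1 and ITGA2B. They summed to between 97.5 and 112 in sh-NC and between 43.1 and 52.7 in sh-IRF1, and both fell, to 39.4% and 48.1% of control. Of 8 adherent or epithelial markers 4 were listed, summing to between 258 and 345 in sh-NC and between 366 and 397 in sh-IRF1. Among these, KRT8 rose 1.46-fold. The part of these differences in the results below was not tested.

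Differences were tested with limma on log2(normalized count + 1) over the 14120 genes with at least 10 normalized counts in at least 2 libraries, with Benjamini-Hochberg adjustment over all of them. All 10 members passed this filter, TLR8 only through its sh-IRF1 libraries. TLR8 therefore entered the test because it was high in that group, and it is set apart from the counts of the other 9 members. Of these, TLR6, NLRP3 and MYD88 rose, TLR2 and TLR4 fell, and TLR1, TLR5, IRAK4 and PYCARD did not pass an adjusted p of 0.05. Thus 3 of 9 were higher and 2 were lower, where 20.3% of all genes tested were higher and 21.9% lower (42.2% in either direction), so called genes were common everywhere in this comparison. With TLR8 included, the median log2 fold change of all 10 was 0.040, beside -0.0019 over all genes tested. That median holds the gene that entered because it was high in sh-IRF1, so no shift of the members is read from it. Of the 9, TLR6 alone was called beyond a log2 fold change of 0.5, where 8.27% of all genes were that much higher and 7.56% that much lower (15.8% in either direction). The 2 groups did not overlap for 5 of the 9, beside 69.2% of all genes tested. In bulk RNA, fewer cells with a transcript and less of it per cell cannot be told apart.

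**Figure D1:**
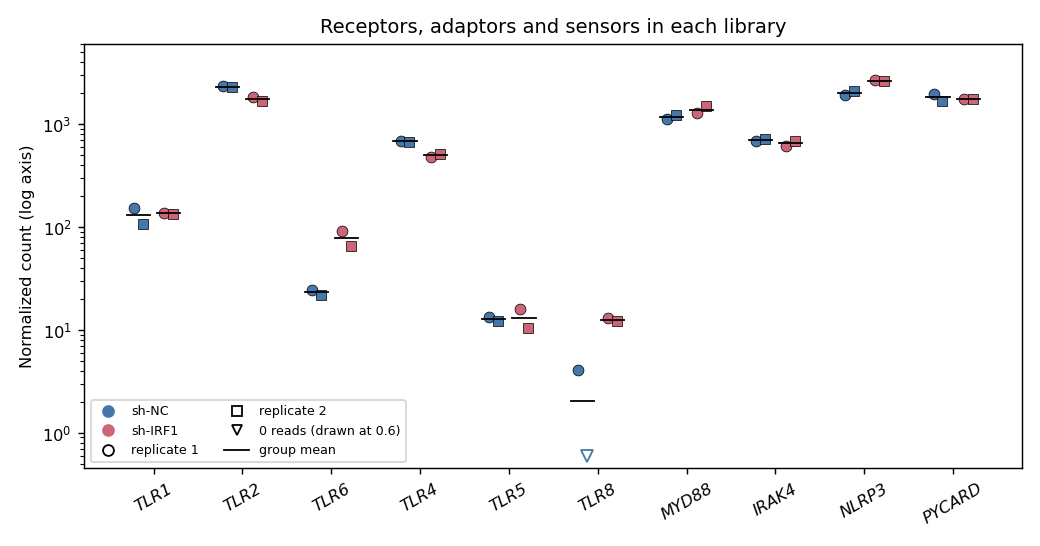
Normalized count (log axis) of each member in the 4 libraries, blue for sh-NC and red for sh-IRF1, circles for replicate 1 and squares for replicate 2, with a black bar at the group mean. The sh-IRF1 libraries lie above both controls for TLR6, TLR8, MYD88 and NLRP3 and below both for TLR2 and TLR4, and the groups overlap for the other 4 members.

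Among the surface receptors for lipoproteins, the most abundant, TLR2, fell while TLR6 rose and TLR1 showed no difference beyond its spread. TLR2 (ENSG00000137462, chr4:153684070-153706260) had 2345 and 2267 normalized counts in sh-NC and 1841 and 1682 in sh-IRF1. The groups did not overlap, and 76.4% of the control mean remained, with a log2 fold change of -0.39 ± 0.0526 (SE) and a limma adjusted p of 2.8e-08. TLR6 (ENSG00000174130, chr4:38822897-38856817) had 24.6 and 21.6 normalized counts in sh-NC and 90.5 and 64.7 in sh-IRF1. Both sh-IRF1 libraries exceeded both controls, a 3.36-fold higher mean and a log2 fold change of 1.69 ± 0.321 (SE) and a limma adjusted p of 2.4e-05. TLR1 (ENSG00000174125, chr4:38790677-38856817) had 153 and 108 normalized counts in sh-NC and 137 and 134 in sh-IRF1. Here the sh-IRF1 libraries lay between the control libraries. The log2 fold change of TLR1 was 0.08 with a 95% interval from -0.31 to 0.46 (adjusted p = 0.774, limma), so neither a moderate rise nor a moderate fall could be told from none.

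TLR1 and TLR6 are neighbours on the same strand and share the outermost 5′ base of their annotation, at 38856817 on chromosome 4. They are paralogs with near-identical stretches, and 4.32% of the 100-base windows of the canonical TLR1 transcript occur in TLR6, as do 1.80% of the TLR6 windows in TLR1. Reads from those stretches could be assigned to either gene, depending on the authors' counting. As a share of the reads of both genes, TLR6 took 13.9% of 173 reads (exact binomial 95% interval 9.10% to 19.9%) and 16.7% of 126 reads (10.6% to 24.3%) in the sh-NC libraries. It took 39.7% of 229 reads (33.4% to 46.4%) and 32.5% of 212 reads (26.3% to 39.3%) in the sh-IRF1 libraries. No interval of a control library reached that of a knockdown library, although these intervals cover counting error only. The mean share was 20.9 percentage points higher, with an exact two-sided permutation p of 0.333, the smallest that 2 libraries against 2 can give. Without any single library the log2 fold change of TLR6 stayed between 1.45 and 1.93.

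TLR4 (ENSG00000136869, chr9:117704175-117724735), the lipopolysaccharide receptor, had 691 and 662 normalized counts in sh-NC and 474 and 516 in sh-IRF1. It was lower in both knockdown libraries, at 73.2% of the control mean, with a log2 fold change of -0.45 ± 0.0906 (SE) and a limma adjusted p of 5.58e-05. CD14, which hands lipopolysaccharide to TLR4, was scarce in these cells and fell further. It had 38.0 and 42.1 normalized counts in sh-NC but 10.9 and 1.87 in sh-IRF1, the last being 2 reads. Its log2 fold change was -2.81 ± 0.582 (SE, limma adjusted p = 8.9e-05), and it was -1.78 without sh-IRF1 replicate 2. As a share of the reads of CD14 and TLR4 together, CD14 took 5.20% and 5.98% in the controls and 2.25% and 0.362% in the knockdown libraries. The exact intervals of the first control (3.69% to 7.10%) and the first knockdown library (1.13% to 3.997%) overlapped. LY96, the co-receptor that binds the lipid itself, had 15.4 and 8.22 normalized counts in sh-NC and 22.9 and 22.5 in sh-IRF1. The groups did not overlap, yet its log2 fold change of 0.95 had a 95% interval from -0.10 to 2.00 and did not pass the test (adjusted p = 0.143, limma). The flagellin receptor TLR5 (ENSG00000187554, chr1:223109404-223143248) was close to the limit of detection, with 13.3 and 12.3 normalized counts in sh-NC and 15.9 and 10.3 in sh-IRF1. Its limma 95% interval ran from -1.16 to 1.16 on the log2 scale, so that fit could not exclude a doubling. The summed reads, 25 in sh-NC and 27 in sh-IRF1, had a ratio of 1.02 with a counting interval of 0.567 to 1.82. That interval covers counting error only.

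TLR8 (ENSG00000101916, chrX:12906620-12923169), an endosomal receptor for RNA, was almost silent in the controls. Its reads numbered 4 and 0 in sh-NC and 13 and 13 in sh-IRF1, or 4.10, 0, 12.9 and 12.2 normalized counts. Both knockdown libraries lay above both controls, and the ratio of the summed reads was 6.11 with a counting interval of 2.12 to 24.1. The fitted log2 fold change was 2.58 ± 0.971 (SE, limma adjusted p = 0.0282), but a gene that passes the filter through 1 group alone had to differ, so this p does not support a rise. It ranged from 1.41 without sh-NC replicate 2 to 3.76 without sh-NC replicate 1, and the call was lost without sh-NC replicate 2 (adjusted p = 0.188), sh-IRF1 replicate 1 (0.196) or sh-IRF1 replicate 2 (0.184). edgeR on the recovered reads gave an adjusted p of 0.0153 under the same filter and thus with the same limit, and DESeq2 gave none. That limit also holds for the ratio of the summed reads. The neighbouring receptor gene TLR7 had 45.1 and 51.4 normalized counts in sh-NC and 24.9 and 22.5 in sh-IRF1, which gave a log2 fold change of -0.996 ± 0.354 (SE) and a limma adjusted p of 0.0201. That call was lost with DESeq2 (adjusted p = 0.0613) and without any library other than sh-NC replicate 1. TLR8 therefore took 8.33% and 0% of the reads of both genes in sh-NC, with upper bounds of 19.98% and 7.11%, and 34.2% and 35.1% in sh-IRF1, with lower bounds of 19.63% and 20.2%, so the intervals of the first control and the first knockdown library overlapped. UNC93B1, the chaperone that brings endosomal Toll-like receptors to their compartment, fell to 71.4% of its control mean (log2 fold change -0.49 ± 0.037 SE, limma adjusted p = 2.42e-15).

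**Figure D2:**
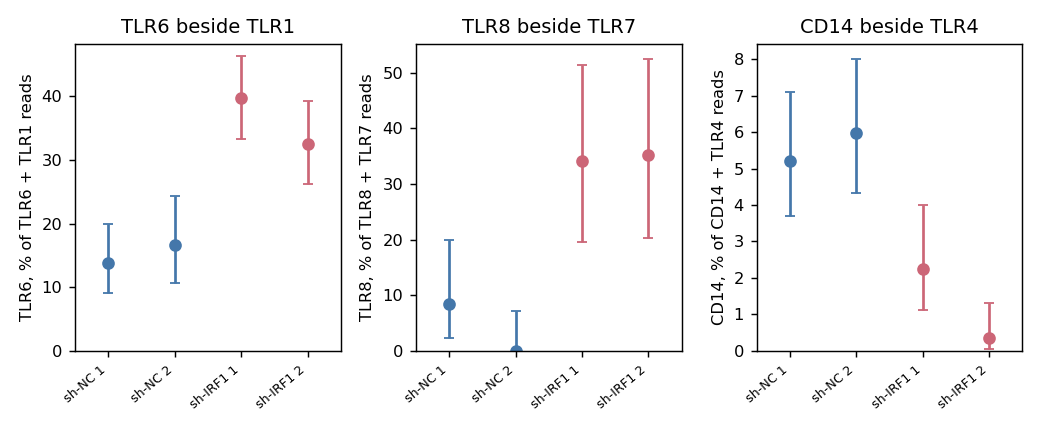
Share of reads (percent) that TLR6 takes of TLR6 and TLR1, TLR8 of TLR8 and TLR7, and CD14 of CD14 and TLR4, in each library, with exact binomial 95% intervals. TLR6 moves from 13.9% and 16.7% in sh-NC to 39.7% and 32.5% in sh-IRF1, TLR8 from 8.33% and 0% to 34.2% and 35.1%, and CD14 from 5.20% and 5.98% to 2.25% and 0.362%.

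Levels of different receptors were compared as reads per kilobase of the canonical transcript and scaled to the library total (RPKM). On this scale TLR2 stood far above the rest, at 35.4 ± 0.903 (SD, n = 2) among controls and 27.9 ± 1.69 (SD, n = 2) after knockdown. TLR4 (2.95 ± 0.0935) and TLR1 (2.52 ± 0.620) followed in sh-NC and did not differ beyond their spread, while in sh-IRF1 TLR1 (2.71 ± 0.0369) was the higher of the pair and TLR4 the lower (2.23 ± 0.141). Per kilobase of all annotated exonic bases TLR4 stayed the higher, with 2.12 against 1.70 in sh-IRF1. Per canonical transcript TLR7 came next in the controls at 0.532 ± 0.0477, above TLR6 (0.190 ± 0.0181) and TLR5 (0.167 ± 0.00957), which lay close together. In sh-IRF1 this order changed, with TLR6 at 0.659 ± 0.153, TLR7 at 0.269 ± 0.0182, TLR5 at 0.176 ± 0.0527 and TLR8 at 0.170 ± 0.00657. The last 2 did not differ beyond their spread on that scale. Per kilobase of all annotated exonic bases TLR5 was lower than both, with 0.0916 against 0.186 for TLR6 in sh-NC and 0.0965 against 0.164 for TLR8 in sh-IRF1. TLR8 in sh-NC (0.0269 ± 0.0380) and TLR9 (0.0338 ± 0.0239 in sh-NC, 0.0244 ± 0.0106 in sh-IRF1) were at the level of single reads. TLR3 was seen in 1 read per sh-NC library and in none of sh-IRF1, and none of the genes measured matched the symbol TLR10.

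MYD88 (ENSG00000172936, chr3:38138552-38143024), the adaptor shared by most of these receptors, had 1123 and 1220 normalized counts in sh-NC and 1267 and 1484 in sh-IRF1. The groups did not overlap, but the gap between the nearest libraries was smaller than the spread within sh-IRF1. Its log2 fold change was 0.23 ± 0.0675 (SE, limma adjusted p = 0.00511). The value was 0.11 without sh-IRF1 replicate 2 (adjusted p = 0.32) and was 0.17 without sh-NC replicate 1 (adjusted p = 0.0557), so the call rested on these libraries. IRAK4 (ENSG00000198001, chr12:43758944-43798307), the kinase recruited by MYD88, had 678 and 719 normalized counts in sh-NC and 611 and 686 in sh-IRF1. These groups overlapped, with a log2 fold change of -0.11, a 95% interval from -0.28 to 0.06 and an adjusted p of 0.32 (limma). Downstream, IRAK1, the next kinase of the complex, rose from 8639 and 8606 to 10053 and 10060 normalized counts, a log2 fold change of 0.22 ± 0.0303 (SE) and a limma adjusted p of 3.59e-08. TRAF6, the ubiquitin ligase that IRAK1 activates, did not pass, at 0.12 with a 95% interval from -0.13 to 0.37 (adjusted p = 0.457, limma).

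NLRP3 (ENSG00000162711, chr1:247416156-247449108), the inflammasome sensor, had 1923 and 2109 normalized counts in sh-NC and 2681 and 2607 in sh-IRF1. Both knockdown libraries lay above both controls, at a 1.31-fold higher mean and a log2 fold change of 0.39 ± 0.05 (SE) and a limma adjusted p of 7.22e-09, the smallest among the members. Dropping any single library left it between 0.33 and 0.46. In GENCODE 44, 66.0% of the exonic bases of NLRP3 are shared with ENSG00000289728, a long non-coding gene on the same strand. That gene was not among the genes measured, and the reads of NLRP3 depend on how the authors' counting treated the overlap. PYCARD (ENSG00000103490, chr16:31201486-31203450), the adaptor that links NLRP3 to caspase-1, had 1944 and 1693 normalized counts in sh-NC and 1768 and 1762 in sh-IRF1. The knockdown libraries lay between the controls, with a log2 fold change of -0.04 and a 95% interval from -0.15 to 0.08 (adjusted p = 0.615, limma). PYCARD shares 59.7% of its exonic bases with the antisense gene PYCARD-AS1, which was not among the genes measured either. Without a stated use of strand the reads of such partners cannot be told apart. On the per-length scale PYCARD was the most abundant member, at 133 ± 13.2 in sh-NC and 133 ± 0.142 in sh-IRF1, beside 26.6 ± 1.69 and 36.0 ± 0.586 for NLRP3 (SD, n = 2 each).

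**Figure D3:**
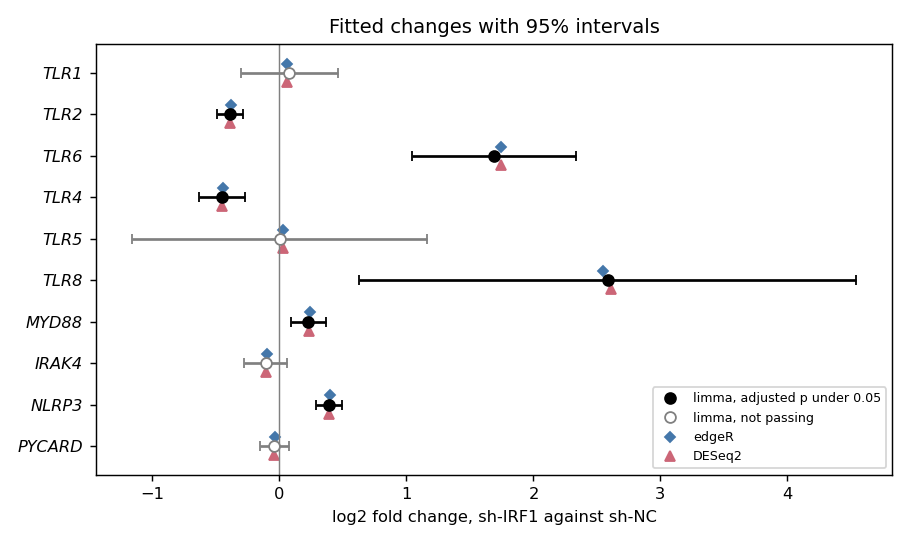
Log2 fold change of each member, sh-IRF1 against sh-NC, from limma with its 95% interval (filled where the adjusted p is under 0.05), with edgeR (diamonds) and DESeq2 (triangles) estimates beside it. TLR6 (1.69) and TLR8 (2.58) have the largest estimates and, with TLR5, the widest intervals, while TLR2, TLR4, MYD88 and NLRP3 lie within 0.5 of 0.

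The other genes of these pathways, in 7 lists of 93 genes, moved in both directions. Of 72 with enough reads, 23 rose, 19 fell and 30 did not pass, with a median log2 fold change of 0.062. That is 58.3% called, beside 42.2% of all genes (20.3% higher and 21.9% lower). Among 20 tested adaptor and signalling genes 6 rose and 5 fell (median 0.13), led by TOLLIP, an inhibitor of IRAK signalling (1.49-fold, log2 fold change 0.58, adjusted p = 1.67e-13), and TAB2, which couples TRAF6 to the kinase TAK1 (59.7% of control, -0.74, adjusted p = 1.69e-11, limma for both). Of 8 tested co-receptor and chaperone genes, UNC93B1 and CD14 fell (median of the list 0.017) and CD180, a TLR-like protein of myeloid and B cells, rose (0.15, adjusted p = 0.00568, limma), a call lost without sh-IRF1 replicate 1 (adjusted p = 0.219).

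Genes that work with NLRP3 moved both ways. Of 12 tested inflammasome sensors and partners 5 rose and 4 fell, with a median of -0.011 on the log2 scale. TXNIP, a binding partner of NLRP3, rose 1.21-fold (log2 fold change 0.27, adjusted p = 2.33e-05, limma). P2RX7, the ATP-gated channel that triggers NLRP3, fell to 68.7% of control (-0.55, adjusted p = 2.42e-06, limma). However, 33.0% of the exonic bases of P2RX7 are shared with an antisense gene that was not among the genes measured. NAIP, a flagellin sensor with near-identical gene copies and therefore uncertain reads, had a log2 fold change of 1.09 (adjusted p = 0.00165, limma) from 55.4 and 28.8 to 89.5 and 83.4 normalized counts, which was 0.63 without sh-NC replicate 2 (adjusted p = 0.0783) and also lost its call without sh-IRF1 replicate 1 (0.0542). NLRP1, a sensor of its own kind, did not pass (-0.31, adjusted p = 0.0552, limma). Of 9 tested caspases and effectors 3 rose and 1 fell (median 0.11), or 44.4% called, which is near the 42.2% of all genes tested. NINJ1 rose 1.17-fold, from 858 and 833 to 1033 and 944 normalized counts. CASP4 fell to 75.7% of control (log2 fold change -0.40, adjusted p = 0.00322, limma), and its change stayed between -0.52 and -0.28 without any single library. CASP1, the caspase that PYCARD recruits, had 296 and 346 normalized counts in sh-NC and 430 and 378 in sh-IRF1 (log2 fold change 0.33 ± 0.117 SE, limma adjusted p = 0.0197), but DESeq2 gave 0.0661 and the call was lost without sh-NC replicate 1 (0.206) or sh-IRF1 replicate 1 (0.245). IL1B, its cytokine substrate, was low and did not pass, at 130 and 110 against 89.5 and 117 normalized counts (log2 fold change -0.22, 95% interval -0.64 to 0.19, adjusted p = 0.408, limma).

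Of 12 tested sensors of other cytosolic pathways 7 rose and 1 fell, with a median log2 fold change of 0.18, beside 20.3% higher and 21.9% lower among all genes tested. IFIH1 (MDA5), a sensor of long double-stranded RNA, rose from 176 and 177 to 370 and 382 normalized counts, 2.13-fold (log2 fold change 1.09, adjusted p = 2.43e-09, limma), and STING1, the adaptor for cyclic dinucleotides, fell to 80.5% of control (-0.31, adjusted p = 1.25e-07, limma). Of 10 tested inflammatory output genes 1 rose and 5 fell (median -0.20), read against the same shares of all genes. CXCL8, a neutrophil chemokine, rose from 95.4 and 85.3 to 255 and 281 normalized counts (2.97-fold, log2 fold change 1.56, adjusted p = 1.42e-10, limma). CCL2, a monocyte chemokine, fell from 751 and 763 to 255 and 229 (31.9% of control, -1.65, adjusted p = 5.01e-18, limma). These chemokine changes were far larger than the spread between replicates and of opposite sign.

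**Figure D4:**
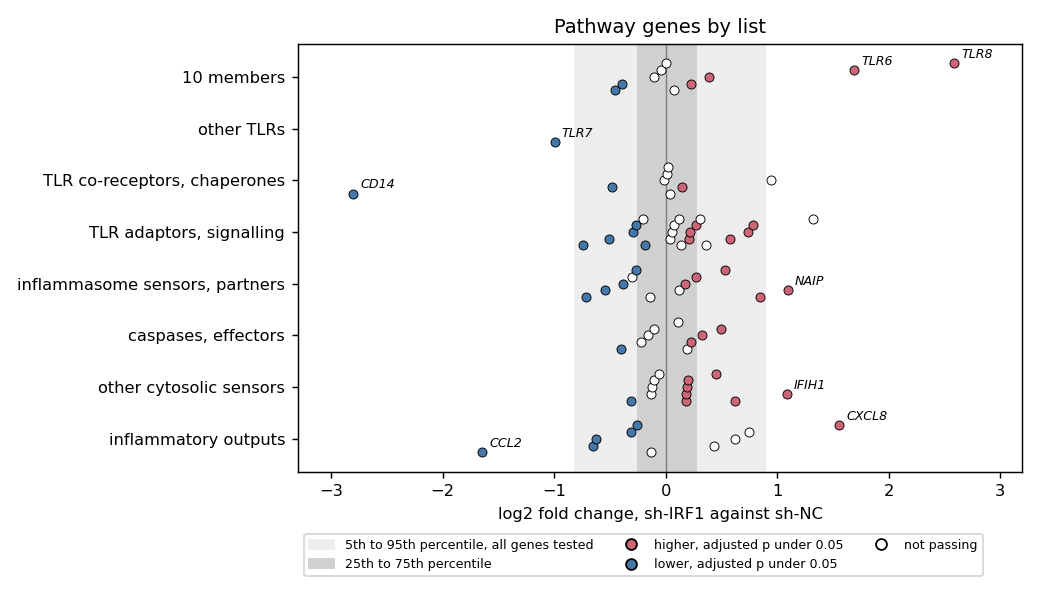
Log2 fold change of every tested gene in the member list and 7 pathway lists (red higher, blue lower, open not passing), over grey bands for the 5th to 95th and 25th to 75th percentiles of all 14120 genes tested. Members and partners lie on both sides of 0, with TLR8, TLR6 and CXCL8 furthest to the right and CD14 and CCL2 furthest to the left.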

How the data were processed

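Per the labels, total RNA of MV4-11 cells was made into libraries with an Illumina TruSeq kit, and the submitters' processing notes name HISAT2 2.0.5 and hg38. The study names DESeq2 for differential expression. The counting tool, annotation and use of strand are not given in the sources used here. The deposited signal is the authors' read count per gene divided by 1 size factor per library, with 0 further per-sample columns. All values (100%) were whole multiples of 1 read within 0.001 of a read, so the reads were recovered.

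The main test was limma 3.58.1 (R 4.3.3, trended variance, robust) on log2(value + 1) with the 2 groups and no covariate. It covered 14120 genes with at least 10 normalized counts in at least 2 libraries. Each gene's variance was drawn toward a trend over all genes (median prior degrees of freedom 43.0), so small p-values rest largely on that pooling. edgeR 4.0.16 and DESeq2 1.42.0 on the recovered reads were alternatives. The added 1 pulls changes of low genes toward 0, but the fitted change can also be larger than in the count tests. For CD14 it was -2.81 in limma, -2.64 in edgeR and -2.66 in DESeq2. On simulated reads for this comparison, with 200 genes changed by 1 on the log2 scale, limma recovered 200 among 14037 genes with 3 false calls, edgeR 200 with 4, and DESeq2 187 among 17909 with 0. The changed genes were drawn only from those with higher mean counts than TLR5 and TLR8, and all genes shared the same simulated dispersion. This recovery therefore does not cover genes with few reads. Symbols matched 23456 of 23622 identifiers. Positions, lengths and overlaps came from GENCODE 44. Intervals of read shares cover counting error only.

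The members and lists were chosen with earlier results of these data known. Genes outside the members were named by rule: the lowest adjusted p for each list and direction, changes beyond 1 on the log2 scale, and direct partners of a member. No spike-in was described, so a change in total RNA per cell cannot be seen.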

Additional observations from a re-analysis of the deposited data

How the results depend on the processing

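Calls of the members depended most on the fold change asked for. With a log2 fold change beyond 0.5, 2 members were higher and 0 lower in limma, both at an adjusted and at an unadjusted p under 0.05. Without that limit 4 were higher and 2 lower (TLR8 is counted among the higher in both). Calls over all genes tested also dropped under that limit, from 42.2% to 15.8% at an adjusted p under 0.05. Leaving out 1 library at a time lowered the number of members called higher, and also the number of all genes called. In these refits the lone library was assumed to vary like the other group. The replicate numbers pair the libraries in name only: the deviations of same-numbered libraries correlated at -0.015 over genes. With the replicate block, 4 members were higher and 2 lower, and 2903 genes in all were higher and 3147 lower, beside 2861 and 3092. edgeR called 4 and 2 members, and DESeq2 3 and 2 of 9 members to which it gave an adjusted p. Over all genes edgeR called 2955 higher and 3080 lower of 14120, and DESeq2 2312 and 2605 of 14462.

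Of the members without a call, IRAK4 kept its sign under every alternative run and TLR1, TLR5 and PYCARD did not, nor did TRAF6 among the partners. The log2 fold change of PYCARD was 0.0047 when scaled by total reads and ran from -0.14 to 0.060 with each library left out. That of TLR5 was -0.00020 with a pseudocount of 0.5 and ran from -0.29 to 0.29, that of TLR1 from -0.17 to 0.33, and that of TRAF6 from -0.10 to 0.35. Scaling by total reads moved the median of all genes by 0.044. Of 610 refitted values for the 41 named genes, 574 kept their direction and side of the threshold, 28 lost a call, 1 gained one and 7 changed sign. With a filter on the mean of at least 20, TLR5 and TLR8 could not be tested. The causes of these changes were not tested. With 2 libraries a group and under 30 reads, TLR5 and TLR8 are limited by depth.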

Other observations

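Transcription factors of the myeloid lineage, several of which act on promoters of innate immune genes, moved in both directions. Of 12 tested, 1 rose and 6 fell (median log2 fold change -0.084), beside 20.3% and 21.9% of all genes. SPI1 (PU.1), a master regulator of monocytes, rose from 5719 and 5472 to 6247 and 6376 normalized counts, a log2 fold change of 0.17 ± 0.0353 (SE) and a limma adjusted p of 6.46e-05. EGR1, an immediate early factor, fell from 3080 and 3174 to 1355 and 1329 (-1.22 ± 0.0505 SE, limma adjusted p = 6.7e-25). Of the 12 myeloid leukemia identity markers 2 rose and 5 fell. Among their transcripts, LYZ (lysozyme) rose 1.80-fold and MPO (myeloperoxidase) fell to 37.3% of control (limma adjusted p = 3.83e-20 and 7.78e-13). FLT3 fell to 72.9% of control, from 17391 and 17412 to 12745 and 12634 normalized counts.

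Over the 4 libraries the log2 values most like those of NLRP3 were of LMF2, ZNF700 and RBFADN (Pearson r = 1.00 each). With 4 points shared between 2 groups this is a weak description, since 347 of 14119 genes had an r above 0.99.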
